A study of Mus musculus with 16 samples.

Results

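The liver mRNA of 6 selenoprotein genes, Selenop, Selenow, Selenoh, Msrb1, Selenoo and Selenoi, was described over 4 mouse genotypes. The 6 genes were chosen by name, and not by a measured value, from 18209 named genes in the deposited table and 24 selenoprotein genes of the mouse. They were grouped as secreted and cytosolic selenoproteins, but that name does not suit all of them. SELENOP is secreted into plasma, and SELENOW and MSRB1 are found in the cytosol. SELENOH is known as a nucleolar protein, SELENOO as a mitochondrial one, and SELENOI as a membrane protein, so they are called here by their gene names.

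The study sequenced rRNA-depleted liver RNA at 20 days of age from mice labelled male, 4 libraries in each genotype. The question was what the KEAP1 sensor cysteines contribute in livers that lack selenoproteins. All 4 genotypes carried Trspfl/fl, that is, both copies of the selenocysteine tRNA gene Trsp were floxed, and Trspfl/fl alone was the control. In Trspfl/fl::AlbCre, a Cre driven by the albumin promoter deleted Trsp in hepatocytes. The paper describes this knockout as hepatocyte-specific, and which cells lost the gene was not measured here. Keap1C226SC613Shomo::Trspfl/fl mice had serine in place of the KEAP1 cysteines Cys226 and Cys613 on both alleles, and Keap1C226SC613Shomo::Trspfl/fl::AlbCre mice combined the substitutions with the deletion. These 4 groups are called control, knockout, Keap1-substituted and Keap1-substituted knockout livers. No row of the table carries the name Trsp, and loss of the tRNA could not be checked. In bulk RNA, fewer cells of a type and less RNA per cell cannot be told apart.

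Selenoproteins contain selenocysteine, which is placed at a UGA codon by its own tRNA with the help of an element in the mRNA and several proteins. Without that tRNA, UGA is read as a stop codon. An mRNA with a stop well before its last exon junction is a known target of nonsense-mediated decay, whereas a stop in the last exon usually spares it. Hepatocytes are the main source of SELENOP, which carries selenium through plasma to other organs. KEAP1 represses the transcription factor NRF2 by marking it for degradation. When the KEAP1 cysteines that sense oxidative stress are oxidized, this activity is lowered and NRF2 accumulates.

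The sequences around the selenocysteine UGA codons are given first, because the 6 mRNAs differ in where this codon lies. They were read from GENCODE M21 transcripts (build GRCm38), run 5′ to 3′ on the mRNA strand with T for U, and have each selenocysteine TGA in capitals. In the mRNA of Selenop, the selenium carrier, 1 UGA lies early, at codon 59 of 380 in exon 2 of 5, at chr15:3274848-3274850 on the plus strand. The other 9 UGA codons of Selenop all lie in the last exon, and 5 of them are crowded near the end of the coding sequence.
Selenop codon 59: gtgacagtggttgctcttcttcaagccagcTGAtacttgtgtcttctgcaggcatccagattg
Selenop last 5 UGA codons: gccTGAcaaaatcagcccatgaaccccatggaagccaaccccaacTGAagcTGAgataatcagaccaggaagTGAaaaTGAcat

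In Selenow, Selenoh and Msrb1 the single UGA also lies before the last exon. It is codon 13 of 88 in exon 2 of 6 for Selenow (chr7:15920464-15920466, minus strand). It is codon 38 of 116 in exon 2 of 3 for Selenoh (chr2:84670381-84670383, minus strand). It is codon 95 of 116 in exon 3 of 4 for Msrb1 (chr17:24740158-24740160, plus strand).
Selenow codon 13: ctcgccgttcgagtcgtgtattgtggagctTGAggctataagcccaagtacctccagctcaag
Selenoh codon 38: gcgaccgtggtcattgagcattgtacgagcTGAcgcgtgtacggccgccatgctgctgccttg
Msrb1 codon 95: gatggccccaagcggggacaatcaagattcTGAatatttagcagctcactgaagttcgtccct

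In Selenoo and Selenoi the UGA lies close to the normal stop codon and in the last exon. It is codon 665 of 667 in exon 9 of 9 for Selenoo (chr15:89099975-89099977, plus strand), so the window below reaches the end of the coding sequence. It is codon 388 of 398 in exon 10 of 10 for Selenoi (chr5:30266964-30266966, plus strand).
Selenoo codon 665: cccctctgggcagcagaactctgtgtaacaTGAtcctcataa
Selenoi codon 388: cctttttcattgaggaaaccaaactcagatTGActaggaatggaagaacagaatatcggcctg

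The distance from the end of the first UGA to the last exon junction was 357 bases in Selenop, 243 in Selenow, 136 in Selenoh and 34 in Msrb1. These distances rest on 1 transcript a gene. Over every annotated transcript with a selenocysteine codon, the distance ranged from 108 to 266 bases for Selenoh and from 34 to 66 for Msrb1, and the first UGA stayed before the last exon in all of them.

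The libraries held between 11386669 and 19164133 reads. Pearson correlations across genes between replicates ranged from 0.9476 to 0.9833, where genes are not independent. All 8 hepatocyte markers were detected in every genotype. The library of Keap1-substituted knockout replicate 1 stood apart. It had 28798 Xist reads, where the other 15 libraries had 22 to 50, 2 reads on 4 Y-linked genes against 1830 to 3066, and the lowest albumin share (4.86% of reads, range 4.86% to 10.75%), although its label says male. For the comparisons that hold it, values without it are given beside the fold changes printed for the 6 genes and beside the medians of the selenoprotein groups.

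The 6 mRNAs differed widely in level in control livers. In reads per kilobase of the annotated transcript per 1000000 reads, Selenop stood at 2890 ± 128 (SD, n = 4), Msrb1 at 160 ± 23.8, and Selenow at 45.3 ± 7.99. Selenoo stood at 24.0 ± 3.29, Selenoh at 8.48 ± 0.31 and Selenoi at 8.21 ± 2.37 on this scale. Selenop was thus by far the most abundant of the 6, and the order of the last 2, Selenoh and Selenoi, lies within their spread. Selenoh is short and rests on few reads, 13 to 108 a library, so its values are the least precise.

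With normal KEAP1, Selenow fell in the Trsp knockout, and Selenop, Selenoh and Msrb1 were lower in every knockout library than in any control library. Selenoo and Selenoi overlapped between the groups. With KEAP1 substituted, Selenow and Selenop fell, and the same 4 genes separated the groups. Values below are on the deposited log2(normalized count + 4) scale, which understates changes of weakly expressed genes. A call needs a log2 fold change beyond 1 in either direction and a limma adjusted p under 0.01, the thresholds of the study, with p adjusted over the 15781 genes that passed a filter on low values. All 6 genes passed the filter. The paper, from its own fit, names Selenop and Selenow as down-regulated in both knockout genotypes, and its supplement adds Selenoh. Calls here can therefore differ from those of the paper.

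**Figure D1:**
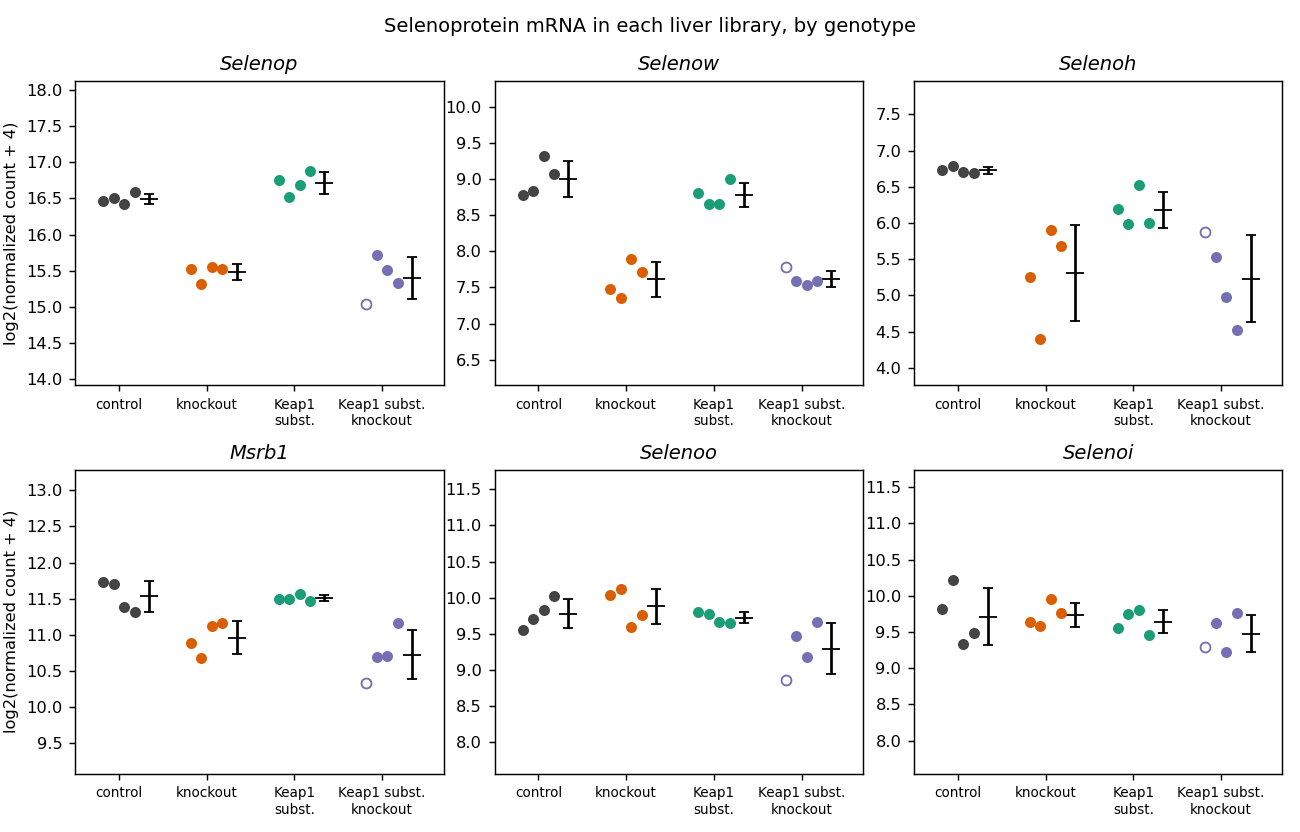
Level of each of the 6 mRNAs in each of 16 libraries, as log2(normalized count + 4), with 4 libraries a genotype (points) and their mean ± SD (bars). Each panel spans the same number of log2 units, and the open point is Keap1-substituted knockout replicate 1. Selenop, Selenow, Selenoh and Msrb1 lie lower in both knockout groups than in the matching groups with Trsp intact, without overlap, while Selenoo and Selenoi overlap.

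Selenop (ENSMUSG00000064373, chr15:3268547-3280508) took 0.578% to 0.638% of all reads in control livers and 0.275% to 0.317% in knockout livers. The control libraries had Selenop log2 values of 16.46, 16.50, 16.43 and 16.59. The knockout libraries had 15.53, 15.32, 15.55 and 15.53. The groups lay 0.88 apart at their nearest libraries. The log2 fold change was -1.01 (standard error 0.18, 95% interval -1.40 to -0.62), and the limma adjusted p of 0.016 missed the threshold of 0.01. Without Keap1-substituted knockout replicate 1, a library outside this comparison that enters the shared estimate of spread, the same fold change was called with limma (adjusted p = 0.0042).

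In livers with substituted KEAP1, Selenop fell when Trsp was deleted. The Keap1-substituted libraries had log2 values of 16.76, 16.52, 16.69 and 16.88. The Keap1-substituted knockout libraries had 15.04, 15.72, 15.51 and 15.33. The log2 fold change was -1.31 (standard error 0.18, 95% interval -1.70 to -0.92, limma adjusted p = 0.0027), which is 0.403 of the level with Trsp intact. The lowest value came from replicate 1, the library that stood apart, and without it the log2 fold change was -1.19 (limma adjusted p = 0.0034). Without Keap1-substituted replicate 1 or replicate 3 the fold change was -1.30 and -1.32, and the limma adjusted p rose to 0.012 and 0.013, so the call was lost. It was also lost when only these 8 libraries were fitted (limma adjusted p = 0.072).

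Selenow (ENSMUSG00000041571, chr7:15917208-15922402), a small redox protein of the thioredoxin-like fold, had log2 values of 8.78, 8.83, 9.31 and 9.07 in control livers. Knockout livers had 7.48, 7.35, 7.90 and 7.72. Every knockout library was below every control library. Selenow fell by 1.39 on the log2 scale (standard error 0.14, 95% interval -1.69 to -1.08, limma adjusted p = 8.2e-05), to 0.383 of the control level. It ranked 10 by p among all genes tested.

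With KEAP1 substituted, Selenow read 8.81, 8.65, 8.65 and 9.0 with Trsp intact. The knockout libraries read 7.78, 7.59, 7.53 and 7.59, a tight group well below the others. Selenow fell by 1.15 on the log2 scale (standard error 0.14, 95% interval -1.46 to -0.85, limma adjusted p = 0.00091), and by 1.21 without replicate 1 of the knockout group (limma adjusted p = 0.0017). It was the only one of the 6 genes called in both KEAP1 backgrounds, and it stayed called in all 16 fits that left out 1 library in each background.

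Selenoh (ENSMUSG00000076437, chr2:84669215-84670770), a DNA-binding redoxin of the nucleolus, had log2 values of 6.73, 6.79, 6.70 and 6.69 in control livers. Knockout livers had 5.26, 4.40, 5.90 and 5.68. The control libraries were within 0.1 of each other, whereas the knockout libraries spread over 1.5 log2 units, on 13 to 52 reads. The log2 fold change was -1.42 (standard error 0.31, 95% interval -2.08 to -0.76), with a limma adjusted p of 0.054.

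In Keap1-substituted livers Selenoh read 6.20, 5.99, 6.53 and 6.0, and in Keap1-substituted knockout livers 5.88, 5.53, 4.98 and 4.52. The groups were apart by a small gap, and their log2 difference was -0.95 (standard error 0.31, 95% interval -1.61 to -0.29, limma adjusted p = 0.18). Replicate 1, the library that stood apart, was the highest of its group, and without it the log2 fold change was -1.17 (limma adjusted p = 0.15). Selenoh shares its whole length with Gm28635, a gene model on the same strand that has its own row, so its count is uncertain. Gm28635 had 90 reads in control replicate 4, 10 in Keap1-substituted replicate 1, 9 in Keap1-substituted knockout replicate 4 and 0 elsewhere. With both rows summed, an alternative added after the data were seen, the Selenoh log2 fold changes were -1.68 (limma adjusted p = 0.024) with normal KEAP1 and -0.87 (limma adjusted p = 0.24) with KEAP1 substituted.

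Msrb1 (ENSMUSG00000075705, chr17:24736642-24742778) encodes a methionine sulfoxide reductase with selenocysteine in its active site. It read 11.73, 11.70, 11.38 and 11.32 in control livers and 10.89, 10.68, 11.12 and 11.16 in knockout livers. The groups did not overlap, but the log2 fold change of -0.57 (standard error 0.16, 95% interval -0.90 to -0.24) had a limma adjusted p of 0.16.

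In Keap1-substituted livers Msrb1 read 11.50, 11.49, 11.57 and 11.47, and in Keap1-substituted knockout livers 10.34, 10.69, 10.71 and 11.16. The log2 fold change was -0.78 (standard error 0.16, 95% interval -1.11 to -0.45, limma adjusted p = 0.027). Replicate 1 was again the lowest, and without it the value was -0.66 (limma adjusted p = 0.079).

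Selenoo (ENSMUSG00000035757, chr15:89089084-89100340) encodes a mitochondrial protein of the protein kinase fold that transfers AMP to its targets. It read 9.55, 9.71, 9.83 and 10.02 in control livers and 10.04, 10.12, 9.60 and 9.76 in knockout livers, which overlapped throughout. The log2 fold change was 0.10 (standard error 0.16, 95% interval -0.24 to 0.44, limma adjusted p = 0.85).

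In Keap1-substituted livers Selenoo read 9.80, 9.77, 9.66 and 9.65, and in Keap1-substituted knockout livers 8.86, 9.47, 9.18 and 9.67. Of the knockout libraries, 1 reached into the range of the others. The log2 fold change was -0.43 (standard error 0.16, 95% interval -0.77 to -0.08, limma adjusted p = 0.26), and without replicate 1, the lowest, it was -0.28 (limma adjusted p = 0.54). Selenoo overlaps Tubgcp6 on the opposite strand over 1984 bases. The paper names a directional library kit, but whether the counting used strand is not given in the sources used here. Tubgcp6 had log2 fold changes of -0.12 and -0.03 in the same comparisons.

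Selenoi (ENSMUSG00000075703, chr5:30232581-30272427) encodes the ethanolamine phosphotransferase that makes phosphatidylethanolamine. It read 9.82, 10.22, 9.33 and 9.48 in control livers and 9.64, 9.59, 9.95 and 9.76 in knockout livers. The knockout range lay inside the control range, and the log2 fold change was 0.02 (standard error 0.17, 95% interval -0.35 to 0.39, limma adjusted p = 0.98).

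In Keap1-substituted livers Selenoi read 9.56, 9.75, 9.81 and 9.46, and in Keap1-substituted knockout livers 9.29, 9.63, 9.23 and 9.76. These groups overlapped too, and the log2 fold change was -0.17 (standard error 0.17, 95% interval -0.54 to 0.20, limma adjusted p = 0.74), or -0.11 without replicate 1 (limma adjusted p = 0.90). For both Selenoo and Selenoi with normal KEAP1, the interval leaves out a change as large as that of Selenow.

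Markers of the liver's cell types were set beside these values. The 8 hepatocyte markers had a median log2 fold change of 0.04 in the knockout with normal KEAP1, with 4 lower and 4 higher. With KEAP1 substituted the median was -0.35 and 7 of 8 were lower. Their summed normalized counts ranged from 1760000 to 2130000 in Keap1-substituted livers and from 857000 to 1670000 in Keap1-substituted knockout livers, or from 1180000 without replicate 1.

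The medians of the 10 erythroid markers had opposite signs in the 2 backgrounds. With normal KEAP1, 9 of 10 were lower (median -1.25), and they summed to 12700 to 23000 in control livers and 5500 to 12800 in knockout livers. With KEAP1 substituted, 9 of 10 were higher (median 0.24), with sums of 4440 to 9330 and 5770 to 34900, and the highest sum without replicate 1 was 8800. Of the other lists, 6 of 6 cycling-cell markers were lower in the knockout in both backgrounds (medians -0.46 and -0.23), and 6 of 6 Kupffer cell markers were lower with KEAP1 substituted (median -0.58). All 5 megakaryocyte markers tested (median -0.67) and 6 of 6 stellate cell markers (median -0.17) were lower with normal KEAP1. All 5 B cell markers were lower in the knockout with KEAP1 substituted (median -0.32). All 5 were higher with the substitutions, both with Trsp intact (median 1.49) and in the knockout (median 1.40). With the substitutions, 6 of 6 cycling-cell markers were lower, with Trsp intact (median -0.72) and in the knockout (median -0.51). All 6 Kupffer cell markers were higher with Trsp intact (median 0.42), and all 5 megakaryocyte markers tested were higher in the knockout (median 0.88). Of 10 erythroid markers, 9 were lower with Trsp intact (median -0.83) and 9 higher in the knockout (median 0.68). In the knockout, the erythroid sums were 5500 to 12800 with normal KEAP1 and 5770 to 34900 with KEAP1 substituted. Without replicate 1 the latter reached only 8800, within the range with normal KEAP1. Endothelial and cholangiocyte markers went both ways in each of these comparisons, with list medians from -0.17 to 0.17. Limma called no marker of any list in these comparisons. Of all genes tested, 52.3% were lower in the knockout with normal KEAP1 and 50.7% with KEAP1 substituted. With the substitutions, 51.0% of all genes were lower with Trsp intact and 49.3% in the knockout. The part of these markers in the results was not tested.

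Counted together with limma, 1 of the 6 genes was called lower in the knockout with normal KEAP1, where 0.0253% of all genes tested were. With KEAP1 substituted, 2 of 6 were called lower, where 0.101% of all genes were. In both backgrounds 4 of 6 were lower without overlap between the groups, against 2.62% of all genes with normal KEAP1 and 3.71% with KEAP1 substituted. The median log2 fold change of the 6 was -0.79 and -0.87, beside -0.015 and -0.005 over all genes tested. Without Keap1-substituted knockout replicate 1 the counts called were 2 and 2, and the medians -0.79 and -0.91.

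**Figure D2:**
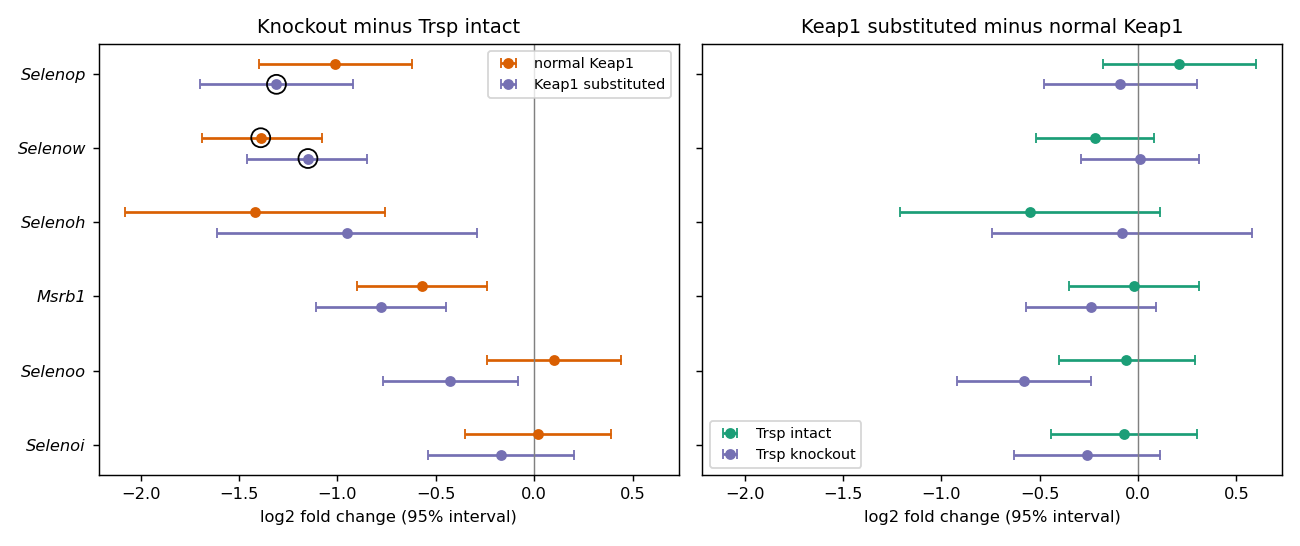
Log2 fold change of the 6 genes (points) with 95% intervals (bars), for the knockout against Trsp intact in each KEAP1 background (left) and for the KEAP1 substitutions against normal KEAP1 with Trsp intact or deleted (right). Circles mark called genes. In the left panel the intervals of Selenop, Selenow, Selenoh and Msrb1 lie below 0 in both backgrounds, and in the right panel only that of Selenoo in the knockout leaves out 0.

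The second question was whether the KEAP1 substitutions changed these mRNAs or their response to the knockout. None of the 6 genes was called. With Trsp intact, limma called 0 of 6, against 0.0127% of all genes in either direction, with 0 at an unadjusted p under 0.05 (9.1% of all genes) and 0 called by limma voom on recovered reads. The log2 fold changes ran from -0.55 (Selenoh) to 0.21 (Selenop). Selenoh was lower in all 4 Keap1-substituted libraries than in any control library (limma adjusted p = 0.64), the 1 such gene of the 6, where 6.23% of all genes did not overlap. With Gm28635 added, its control value rose to 6.99 ± 0.51 (SD, n = 4) and that of Keap1-substituted livers to 6.22 ± 0.27, which differed by -0.77 (limma adjusted p = 0.49).

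In the knockout, limma again called 0 of 6 between the KEAP1 backgrounds, against 0.57% of all genes. Voom called 0, and 1 of 6, Selenoo, had an unadjusted p under 0.05, beside 17.6% of all genes, so this count is near that of the table. For 0 of the 6 the groups did not overlap, against 8.61% of all genes. Selenoo was at 9.88 ± 0.24 in knockout livers and 9.29 ± 0.36 in Keap1-substituted knockout livers (SD, n = 4 each), which differed by -0.58 (standard error 0.16, 95% interval -0.92 to -0.24, limma adjusted p = 0.074). Without replicate 1 of the latter group it was -0.44 (limma adjusted p = 0.21). The summed normalized counts of the 8 hepatocyte markers also ranged lower there, from 857000 to 1670000 (from 1180000 without replicate 1) against 1510000 to 1880000 in knockout livers, and their part in the Selenoo value was not tested.

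The difference between both knockout effects was tested as an interaction. Limma called 0 of 6, against 0.057% of all genes, voom called 0, and 1 (Selenoo) had an unadjusted p under 0.05, beside 10.8% of all genes. The difference, effect with KEAP1 substituted minus effect with normal KEAP1, was -0.30 for Selenop (95% interval -0.85 to 0.25), 0.23 for Selenow (-0.20 to 0.66) and 0.47 for Selenoh (-0.46 to 1.40). It was -0.21 for Msrb1 (-0.68 to 0.25), -0.53 for Selenoo (-1.01 to -0.04, limma adjusted p = 0.45) and -0.19 for Selenoi (-0.72 to 0.33). Without Keap1-substituted knockout replicate 1 it was -0.178 for Selenop, 0.18 for Selenow, 0.251 for Selenoh, -0.085 for Msrb1, -0.379 for Selenoo and -0.13 for Selenoi, all 6 nearer to 0. For the first 4 genes and Selenoi these intervals hold differences in either direction, so the responses are not shown to be alike.

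Over the 4 genotypes, Selenop was ordered Keap1-substituted, control, knockout and Keap1-substituted knockout, with a gap only between control and knockout. Selenow was ordered control, Keap1-substituted, Keap1-substituted knockout and knockout, with a gap only between the middle pair. Msrb1 had control, Keap1-substituted, knockout and Keap1-substituted knockout in that order, and again only the middle pair was apart. For Selenoh, in the same order as Msrb1, the knockout groups overlapped and the other neighbours were apart, by 0.17 and 0.09 log2 units at their nearest libraries. For Selenoo and Selenoi every pair of neighbours overlapped.

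The other 18 selenoprotein genes were set beside the 6. Of these, 17 had a row and 15 were tested, among them the glutathione peroxidases, thioredoxin reductases and deiodinases. In the knockout with normal KEAP1, 1 of 15 was called lower with limma, and the median was -0.56. A log2 fold change below 0 was found in 14 of 15, against 52.3% of all genes tested. With KEAP1 substituted, 1 of 15 was called lower, and 10 of 15 were below 0, against 50.7% of all genes. The median was -0.30, or -0.26 without Keap1-substituted knockout replicate 1. The called gene was Gpx1 both times, with log2 fold changes of -2.11 and -1.84.

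The genes whose groups did not overlap in either background were Gpx1, Selenot and Txnrd2. Selenot, which encodes a selenoprotein of the endoplasmic reticulum, had log2 fold changes of -0.83 (standard error 0.11, limma adjusted p = 0.00099) and -0.76 (standard error 0.11, limma adjusted p = 0.0036). Txnrd2, the mitochondrial thioredoxin reductase, had -0.69 (standard error 0.12, limma adjusted p = 0.013) and -0.85 (standard error 0.12, limma adjusted p = 0.0033). Both lay under the fold threshold.

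The position of the UGA was compared with these values, as a grouping made after the values were seen and therefore with no test. Of 24 selenoprotein genes, 15 had their first UGA before the last exon, and 13 of these were tested. The distance to the last junction was not used in this grouping, and it went down to 5 bases in Selenok. With normal KEAP1 all 13 had a log2 fold change below 0, with a median of -0.80, against 52.3% of all genes tested. With KEAP1 substituted, 9 of 13 were below 0, against 50.7% of all genes tested. The median of the 13 was -0.76 (-0.65 without Keap1-substituted knockout replicate 1), and Gpx3, Gpx4, Selenom and Selenon were above 0. Of the 9 genes with the UGA in the last exon, 8 were tested. In these, 5 of 8 and 7 of 8 were below 0, beside the same 52.3% and 50.7% of all genes. The medians of these 8 were -0.14 and -0.31 (the latter -0.21 without that library). Among them, Dio3 and Sephs2 have 1 exon in the transcript used, and so no exon junction.

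The 6 genes weigh on this split, since the 4 low ones are in the former set. Without them, 9 of 9 and 5 of 9 genes with the first UGA before the last exon were below 0, with medians of -0.56 and -0.21. Of the genes with a UGA in the last exon, 5 of 6 were below 0 in each background, with medians of -0.44 and -0.31. Over all genes tested, 52.3% and 50.7% were below 0. Without that library the medians with KEAP1 substituted were -0.26 for a UGA before the last exon and -0.23 for the last exon. With the sets as drawn here, leaving the 6 genes out brought the medians of both sets close together. Txnrd2 is placed with the last-exon set by the transcript used, but 3 of its 4 annotated transcripts have the UGA before the last exon. With normal KEAP1 Txnrd2 had -0.69, beyond both medians, so how close they lie depends on its placement. Dio3, also in the last-exon set, had -0.72 there, on 6 to 27 reads in control libraries and 2 to 7 in knockout libraries.

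**Figure D3:**
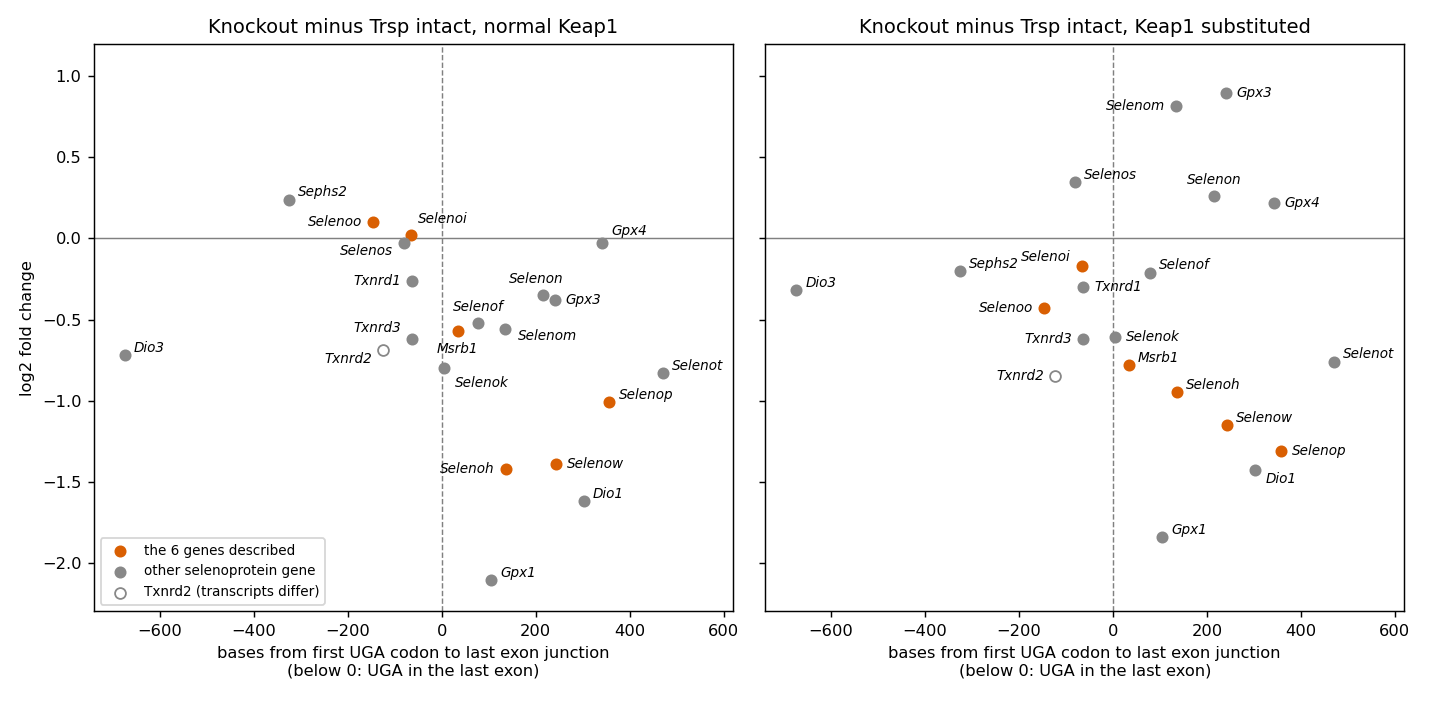
Log2 fold change in the knockout (vertical) against the number of bases from the first UGA to the last exon junction (horizontal, below 0 when the UGA is in the last exon), for 21 tested selenoprotein genes, with normal KEAP1 (left) and KEAP1 substituted (right). Orange points are the 6 genes described, and the open point is Txnrd2. Dio3 and Sephs2 have 1 exon and no junction, so their points lie at minus the distance from the transcript start. All 13 genes right of the dashed line lie below 0 in the left panel, and 9 of 13 in the right panel.

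Lists of genes that act on selenocysteine, on its mRNAs or beside these proteins held no called gene in either knockout comparison. Of 8 genes for selenocysteine synthesis and insertion, such as Sepsecs, which makes selenocysteine on its tRNA, and Secisbp2, which binds the selenocysteine element, limma and voom called 0 in either knockout comparison. At an unadjusted p under 0.05 there were 0 of 8 with normal KEAP1 and 3 of 8 with KEAP1 substituted, where 11% and 13.6% of all genes tested were. Their log2 fold changes ran from -0.22 to 0.24 with normal KEAP1 and from -0.27 to 0.36 with KEAP1 substituted. Of 10 factors of nonsense-mediated decay, the Upf and Smg genes, limma and voom called 0 in both, with 0 and 2 at an unadjusted p under 0.05, and values from -0.22 to 0.32 and from -0.12 to 0.40.

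The SELENOP receptors Lrp1 and Lrp2 were tested, and Lrp8 was below the filter on low values. Neither was called by limma or voom. Lrp2 read -0.53 and 0.62, and Lrp1 -0.27 and -0.44 (unadjusted p = 0.11 and 0.017). The methionine sulfoxide reductases that need no selenium, Msra, Msrb2 and Msrb3, ran from -0.29 to 0.24 and from -0.32 to 0.28, with 0 of 3 called by limma or voom and 0 at an unadjusted p under 0.05. Mien1, a relative of SELENOW without selenium, read -0.18 and -0.04. None of these 4 relatives without selenium had a fold change as large as that of Msrb1 or Selenow in the same comparison.

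Of 10 genes of phosphatidylethanolamine and phosphatidylcholine synthesis, the pathway of SELENOI, limma and voom called 0 in either knockout comparison. There was 1 of 10 at an unadjusted p under 0.05 with normal KEAP1 and 4 of 10 with KEAP1 substituted, beside the same 11% and 13.6% of all genes. The values ran from -0.21 (Pemt) to 0.43 (Chkb) and from -0.69 (Etnk2) to 0.35 (Chka). The medians were 0.08 and -0.14, beside 0.02 and -0.17 for Selenoi itself.

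**Figure D4:**
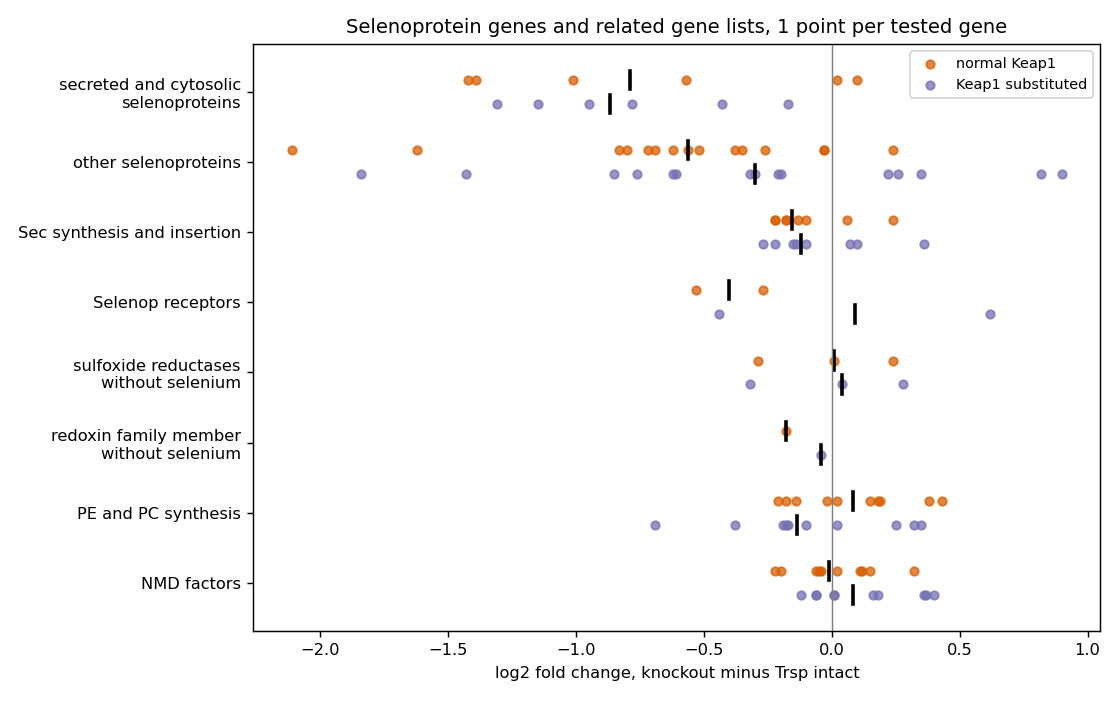
Log2 fold change in the knockout for each tested gene of 8 lists (points) with the list median (black bars), with normal KEAP1 (orange) and KEAP1 substituted (purple). The 6 genes have medians of -0.79 and -0.87 and the other selenoproteins -0.56 and -0.30, while the medians for selenocysteine synthesis and insertion, decay factors and phospholipid synthesis lie between -0.16 and 0.09.

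The genes most like each of the 6 over the 16 libraries were found by Pearson r, as a description with no p, since the libraries share genotypes. Selenop was most like Selenot (r = 0.931), Gpx1 (0.928) and Selenow (0.911). Selenow was most like Txnrd2 (0.917), Selenop (0.911) and Gpx1 (0.906). For both, all 3 nearest genes encode selenoproteins. Selenoh was nearest to Ergic2 (0.882), Selenow (0.860) and Nkd1 (0.841).

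Msrb1 was nearest to AI182371 (0.948), Akr1c20 (0.947) and Lin7a (0.946). Selenoo was nearest to Selenbp1 (0.962), Cyp2c29 (0.953) and Abhd14b (0.952), and Selenoi to Hsd3b7 (0.885), Znrf2 (0.860) and Gtpbp10 (0.832). None of the 9 genes named for Msrb1, Selenoo and Selenoi encodes a selenoprotein. Between Selenop and Selenow, r was 0.91 over the 16 libraries and 0.11 once each genotype mean was taken away.

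The antioxidant response element, searched as TGACNNNGC on both strands of the RefSeq promoter windows around the start of each gene (GRCm38), is the motif that NRF2 binds. It was in 0 of 8 windows of the 6 genes and in 12.39% of all 32851 windows. That says only that these letters are not in these windows.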

How the data were processed

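Liver RNA of 16 mice, 4 per genotype, was grouped by the sample labels. Salmon and GENCODE mouse transcripts were used by the authors to estimate reads, and iDEP to normalize them. The genome build is not given in the sources used here. The GENCODE release that the paper names is not the M21 used here for UGA positions. The deposited values are log2 values per gene and library. After the log2 was undone and 4 subtracted, 100% of low values were whole multiples of 1 step per library (within 0.1). The values are therefore log2 of reads divided by a size factor, plus 4. Rows with no gene identifier, 0.274% to 0.627% of reads, were left out.

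Genes that reached a normalized count of 10 in 4 or more libraries (15781) entered 1 limma fit (limma 3.58.1, R 4.3.3, eBayes with trend, a mean per genotype, no covariates), with Benjamini-Hochberg adjustment over all of them. A call needed a log2 fold change beyond 1 in either direction and an adjusted p under 0.01. The script was tested on simulated data. The p-values measure the spread between labelled samples. Named genes are the 6 chosen ones, genes of fixed lists called in a knockout comparison, other selenoprotein genes whose groups did not overlap in both backgrounds, and the 3 nearest genes by Pearson r. List extremes, Lrp1, Lrp2, Mien1, Tubgcp6, Gm28635, Selenok, Dio3, Sephs2 and the 4 genes above 0 were named after their values were seen. The 6 genes and the lists were chosen with earlier results of these data known. Of 24 selenoprotein genes, Selenov has no row analysed here. UGA positions and sequences came from GENCODE M21 (GRCm38), with 1 transcript per gene. Alternatives were other constants, filters, scalings, tests, thresholds and samples. Tables and plots used Python 3.11.15, pandas 2.3.3 and matplotlib 3.10.9.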

Additional observations from a re-analysis of the deposited data

Results flagged for a closer look

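Of 25 sets of 4 libraries examined (the 6 genes in each genotype, and Xist in Keap1-substituted knockout livers), 2 held a library whose gap to the nearest other was above Dixon's 95% critical value. About 1 in 20 sets would do so by chance. The Xist set was the group that holds the library that stood apart, so it does not count toward such a rate. Selenop was 15.32 in knockout replicate 2, below the other 3 knockout libraries, whose nearest was 15.53. Without that library the Selenop log2 fold change in the knockout with normal KEAP1 was -0.96 (limma adjusted p = 0.060). Xist was 14.71 on the log2 scale in Keap1-substituted knockout replicate 1, where the nearest library of its group was 5.76.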

How the results depend on the processing

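The alternatives were run on the number of the 6 genes called and on each gene's log2 fold change. In the knockout with normal KEAP1, 1 gene was called, and 2 were under quantile normalization, library totals, eBayes without trend, limma voom or an adjusted p under 0.05. Leaving out 1 library gave 1 to 2, the second being Selenop without Keap1-substituted knockout replicate 1. With KEAP1 substituted, 2 were called, and 1 was when only the compared groups were fitted or with the replicate block, and leaving out 1 library gave 1 to 2. In both fits with 1 call the call lost was that of Selenop (limma adjusted p = 0.072 and 0.020). Of 804 single-gene values under alternatives, 773 kept direction and side of the threshold, 4 lost and 5 gained a call, and 22 changed sign, none of them called.

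The sign changes under quantile normalization were Selenoi in the knockout with normal KEAP1 (-0.015), Selenop (0.25) and Selenow (-0.004) between KEAP1 backgrounds in the knockout, and Selenop for the difference of effects (0.164). With library totals Selenop was 0.042 and Selenoh 0.037 between KEAP1 backgrounds in the knockout, and with Gm28635 added Selenoh was 0.039. Leaving out 1 library gave -0.105 to 0.191 for Selenoi in the knockout with normal KEAP1. With Trsp intact, the KEAP1 comparison gave -0.097 to 0.041 for Msrb1, -0.193 to 0.103 for Selenoi and -0.134 to 0.024 for Selenoo. In the knockout it gave -0.193 to 0.035 for Selenop, -0.077 to 0.107 for Selenow and -0.385 to 0.155 for Selenoh. For the difference of effects it gave -0.405 to -0.178 for Selenop, 0.127 to 0.327 for Selenow, 0.164 to 0.704 for Selenoh, -0.357 to -0.085 for Msrb1, -0.652 to -0.379 for Selenoo and -0.362 to -0.066 for Selenoi.

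Library totals moved the median of all genes to 0.118 in the knockout with KEAP1 substituted, and the share of called genes that were higher from 40.7% to 59.4%. Over the whole table that comparison called 27 genes, 14 with the replicate block, 75 at an adjusted p under 0.05, and 14 (without Keap1-substituted replicate 1 or 3) to 42 (without Keap1-substituted knockout replicate 4) with 1 library left out. The KEAP1 comparison in the knockout called 90, and 50 (without Keap1-substituted knockout replicate 3) to 178 (without replicate 4). Replicate numbers do not pair the libraries: same-numbered deviations correlated from -0.315 to 0.163, 1 of 16 pairs above 0.1, and in 3 of 32 cases a library correlated best with its own number. The few reads of Selenoh, 13 to 108, limit its precision most.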
